A study of Mus musculus with 4 samples.

Results

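Genes for the proteins of the cytosolic ribosome were followed in mouse aorta after chronic treatment with rosiglitazone. They were chosen by symbol alone: the large and small subunit proteins named Rpl, Rplp or Rps with a number, together with Rpsa and Fau. Pseudogenes and the S6 kinases were left out, as were probe sets that list several genes. This gave 50 probe sets for 36 genes, 17 of the large subunit and 19 of the small subunit, out of 12422 probe sets that are not controls and 8251 genes that probe sets name alone. Of these genes, 26 had 1 probe set and 10 had several.

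RNA abundance was measured on Affymetrix MG-U74Av2 oligonucleotide arrays, 2 for mice given rosiglitazone at 25 mg/kg per day for 21 days and 2 for mice given vehicle over the same 21 days. Rosiglitazone is a thiazolidinedione, an agonist of the nuclear receptor PPARγ. The RNA on each array was pooled from the aortas of adult males of the C57BL/6J strain, so both groups shared strain and sex. Neither the number of mice in a pool nor whether the 2 arrays of a group hold separate pools was stated in the labels. The p-values therefore set the group difference against a spread between arrays of a group, which may be technical. For each probe set that spread is drawn in large part from other probe sets of similar brightness. The comparison asks which aortic transcripts differ after chronic treatment.

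Each cytosolic ribosome joins a large subunit, which forms the peptide bond, to a small subunit, which decodes the messenger RNA. The proteins are made in near-equal numbers, and most of their messenger RNAs are among the most abundant of a cell. Many begin with a C and a run of pyrimidines, the terminal oligopyrimidine (TOP) tract, through which the mTOR pathway controls their translation more than their level. An array of this kind measures the level of the transcripts and not how often they are translated.

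The sequences around the gene starts were searched for short motifs, and no motif stood in every window. The shares given are of windows and not of genes. RefSeq start windows of 300 bases (GRCm38.p6, 250 before the start and 50 from it) were found for 29 of the 36 genes, with 38 windows because some genes have several starts. A C followed by at least 4 bases that are all C or T stood exactly at the start in 6 of the 38 windows, or 15.8%, against 2.51% of all 32851 windows. The 6 genes are shown for that tract, with Rplp0 as one whose annotated start lacks it. Each line runs 5′ to 3′, with 35 bases before the start and 15 from it. Capitals mark the tract and any CGGAAG or its reverse complement CTTCCG, the core bound by ETS factors, where these may overlap each other.
Fau, chr19:6057912-6057961, plus strand: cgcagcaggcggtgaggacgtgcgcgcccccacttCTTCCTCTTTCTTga
Rpl35a, chr16:33056447-33056496, plus strand: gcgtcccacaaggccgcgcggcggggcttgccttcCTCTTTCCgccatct
Rpl38, chr11:114668545-114668594, plus strand: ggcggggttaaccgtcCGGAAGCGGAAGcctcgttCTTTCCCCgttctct
Rps10, chr17:27635230-27635279, minus strand: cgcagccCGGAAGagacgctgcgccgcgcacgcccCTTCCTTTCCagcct
Rps18, chr17:33955651-33955700, minus strand: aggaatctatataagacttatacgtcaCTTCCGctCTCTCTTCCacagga
Rps27, chr3:90213634-90213683, minus strand: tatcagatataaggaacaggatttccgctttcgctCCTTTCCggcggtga
Rplp0, chr5:115559432-115559481, plus strand: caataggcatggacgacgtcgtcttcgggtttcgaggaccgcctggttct

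In the whole 300-base windows, CGGAAG on either strand was present in 20 of 38, or 52.6%, against 16.9% of all windows. AAGATGG on either strand, the core of the YY1 motif, was present in 10 of 38, or 26.3%, against 6.34%. TATAAA on either strand was present in 4 of 38, or 10.5%, against 13.6%. These are matches of letters in these windows, and the arrays measured neither binding nor the position of the start. The starts are annotated ones, so a tract that lies a few bases away was not counted.

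The deposited intensities of most ribosomal protein genes tested differed little between the groups. Intensities under a floor of 148 were set to 148, and probe sets were tested where the mean log2 intensity reached that of 414, which kept 34 of the 50 probe sets and 27 of the 36 genes. None (0) of these 34 passed an adjusted p of 0.05 in limma, against 0.364% of the 7134 probe sets tested in all, and 1 had an unadjusted p under 0.05 (10.9% of all tested). With each gene read on its brightest probe set, 11 genes lay above 0 and 16 below, and the median log2 difference, rosiglitazone minus vehicle, was -0.03, which turned to 0.05 once the median of every array was set equal. The median over all 5466 genes tested in the same way was -0.02, and 0.06 after centring.

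The size of the differences, whatever their sign, was smaller than across the arrays as a whole. This did not hold among the dimmer probe sets. With a mean intensity under 5000, the 13 tested probe sets of the family had a median absolute log2 difference of 0.382. All tested probe sets under 5000 had 0.377. The median absolute log2 difference was 0.11 over the 27 genes and 0.36 over all genes tested. It was 0.23 against 0.40 without rosiglitazone replicate 1, 0.19 against 0.40 without vehicle replicate 3, 0.17 against 0.38 without vehicle replicate 4 and 0.22 against 0.37 with no filter. Of the 27 genes, 20 differed by less than 1.2-fold, against 39.3% of all genes, and 24 by less than 1.5-fold, against 71.2%. All 27 differed by less than 2-fold on the brightest probe set, against 89.4% of all genes, and 25 did without vehicle replicate 3. These are descriptions with no test of the family as a whole, and the sign of a difference this near 0 often turned: 21 of the 34 probe sets changed sign with 1 array left out and 9 with each array centred on its median. The count within 1.2-fold was 14 of 27 without rosiglitazone replicate 1 and 17 of 27 without vehicle replicate 3, against 35.1% and 34.8% of all genes.

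**Figure D1:**
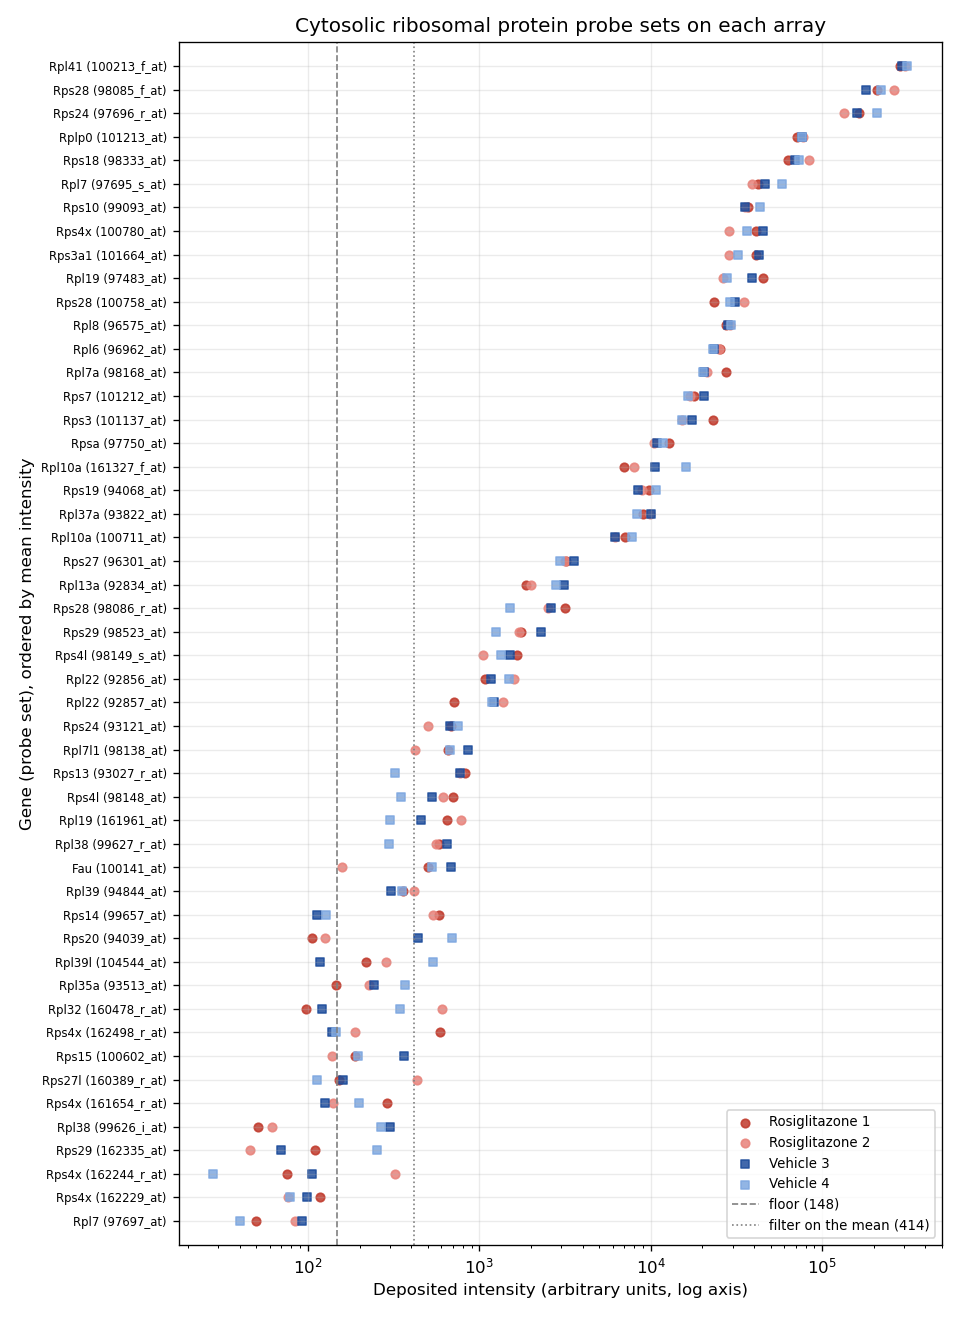
Deposited intensity on a log axis for each of the 50 ribosomal protein probe sets, with 1 point per array (circles rosiglitazone, squares vehicle), ordered by mean intensity, and with the floor of 148 and the filter intensity of 414 as lines. The 4 points of a probe set lie close together at high intensity and spread apart near the floor; the order of probe sets is not an order of transcript levels.

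The brightest probe sets of the family had small differences. Those with a mean intensity of at least 5000 numbered 21, for 19 genes. Their log2 differences ran from -0.81 to 0.25 with a median absolute value of 0.08, while the 969 probe sets of that brightness that list no ribosomal protein gene of this kind had 0.30. With 1 array left out the first median ran from 0.11, without vehicle replicate 4, to 0.14, without rosiglitazone replicate 1, and that of the others from 0.31 to 0.35. The groups did not overlap in 4 of the 21, against 52.1% of all 1015 probe sets of that brightness, and in 8 of all 34 tested, against 40.8% of the 7134. The gap between the 2 arrays of a group was of similar size in both sets, with medians of 0.20 for these 21 and 0.27 for the 969 between the rosiglitazone arrays, and 0.28 and 0.21 between the vehicle arrays. Above 50000 the median absolute difference was 0.03 for 5 ribosomal protein probe sets and 0.41 for 69 others; without rosiglitazone replicate 1 it was 0.23 for the 5 and 0.47 for 73 others, and after quantile normalization 0.13 and 0.35.

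The 95% intervals from limma give the range that these arrays leave possible under the same spread between arrays as the p-values. That spread may be technical, so the intervals may not cover differences between mice. The whole interval lay within 2-fold either way for 22 of the 27 genes, against 30.5% of all genes tested, and within 1.5-fold for 10, against 2.38%. These shares are not matched for brightness, on which the standard error depends in this fit. Its median was 0.22 for the 21 family probe sets of at least 5000 and 0.23 for all 1015 of that brightness. For the 13 of the family under 5000 it was 0.45. No interval (0) lay within 1.2-fold, against 0% of all genes tested, so this limit cannot set the family apart. On each array 14 or 15 of the 50 probe sets were in the brightest 2% of that array. The deposited arrays share a trimmed mean that leaves out the top and bottom 2% of values, so these probe sets did not enter that mean.

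**Figure D2:**
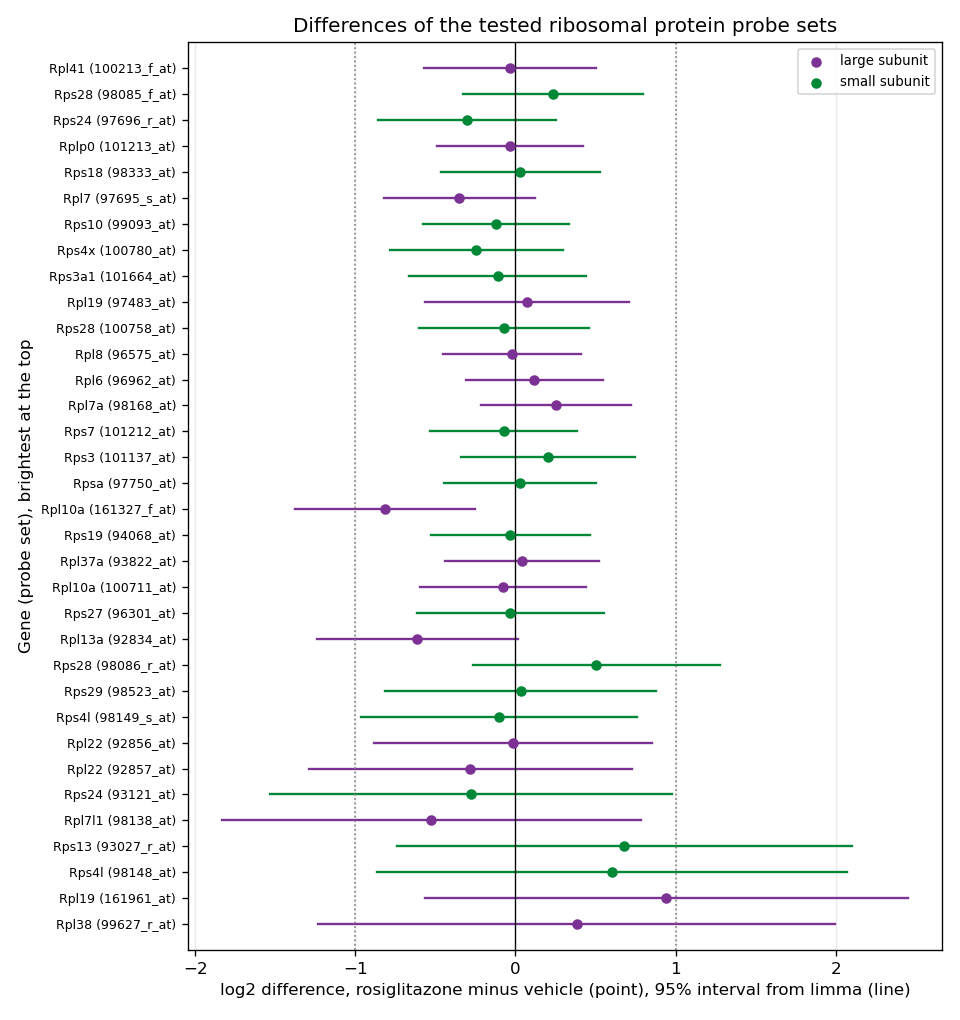
The log2 difference, rosiglitazone minus vehicle (point), with its 95% interval from limma (line) for the 34 tested ribosomal protein probe sets, the brightest at the top and coloured by subunit; dotted lines mark a 2-fold difference. Intervals tend to be narrower for bright probe sets than for dim ones, though none lies within 1.2-fold. The interval of 1 bright probe set, of Rpl10a, leaves out 0.

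Among large subunit genes 5 lay above 0 and 8 below, with a median of -0.02. Rplp0, which anchors the P stalk that recruits elongation factors, had intensities of 71596 and 77492 with rosiglitazone against 76695 and 75930 with vehicle. The vehicle values lie between the rosiglitazone ones, and the log2 difference was -0.03 with a 95% interval from -0.49 to 0.42. Rpl8, a protein close to the peptidyl transferase centre, had 27532 and 29001 with rosiglitazone against 28149 and 29201 with vehicle. Its difference was -0.02, with an interval from -0.45 to 0.41. Rpl41, the smallest protein of the ribosome, had 284903 and 305438 against 290890 and 313894, with alternating groups and a difference of -0.03 (interval -0.57 to 0.50). Rpl37a, a zinc-binding protein, had 8999 and 9859 with rosiglitazone against 10084 and 8314 with vehicle, a difference of 0.04.

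Rpl6 and Rpl7a were higher on both rosiglitazone arrays by a small margin that did not pass. Rpl6 had 25510 and 25039 with rosiglitazone against 23521 and 23099 with vehicle, a log2 difference of 0.12 (standard error 0.19, adjusted p = 0.868 in limma). Rpl7a had 27565 and 21372 against 20437 and 20266. That is a difference of 0.25 (standard error 0.21, adjusted p = 0.72 in limma), with rosiglitazone replicate 1 well above the other arrays, and it was 0.07 without that array. Rpl7 lay the other way, at 42464 and 39035 with rosiglitazone against 46383 and 58148 with vehicle. Its difference was -0.35 (standard error 0.21, adjusted p = 0.592 in limma), and the groups did not overlap. It was -0.19 without vehicle replicate 4 and -0.51 without vehicle replicate 3.

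The lowest difference of the tested genes belonged to Rpl10a, a protein of the L1 stalk, through which spent tRNA leaves the ribosome. Its brighter probe set had 6959 and 7982 with rosiglitazone against 10638 and 16110 with vehicle. The groups did not overlap, and the log2 difference was -0.81 (standard error 0.25, unadjusted p = 0.00949, adjusted p = 0.249 in limma). The other probe set of Rpl10a had 7072 and 6171 against 6212 and 7803. There the groups overlapped and the difference was -0.08, with an interval from -0.59 to 0.44. So the call at an unadjusted p rests on 1 of 2 probe sets of the gene, and the suffix of that probe set marks it as one whose oligonucleotides also match other sequences. Suffixes that mark less selective oligonucleotides are carried by 15 of the 50 probe sets. They include those described for Rpl41 and Rps13 and the tested ones of Rpl7 and Rpl38. The brightest of Rps28 and the bright one of Rps24 carry one too, and with Rpl41 these are among the 5 above 50000.

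Rpl13a is known outside the ribosome as a protein that, once released, holds back the translation of inflammatory messenger RNAs. Its intensities were 1864 and 1995 with rosiglitazone against 3108 and 2803 with vehicle, lower on both rosiglitazone arrays. The log2 difference was -0.61 with a standard error of 0.28 and did not pass (unadjusted p = 0.0542, adjusted p = 0.468 in limma). Leaving out 1 array gave values from -0.69 to -0.54. Markers of macrophages lay lower on the same arrays: the 9 measured had a mean log2 intensity of 10.82 and 10.51 with rosiglitazone against 11.88 and 12.10 with vehicle. Their part in the value of Rpl13a was not tested. In pooled tissue, fewer cells of a type and less RNA per cell cannot be told apart.

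Rpl19, on the rim of the tunnel by which new protein leaves, had 44962 and 26566 on its bright probe set with rosiglitazone against 38810 and 27868 with vehicle. The spread within each group was wider than the difference of 0.07. A dim probe set of the gene had 651 and 779 against 456 and 301, higher on both rosiglitazone arrays, with a difference of 0.94 and an interval from -0.56 to 2.45. Rpl22, an RNA-binding protein of the large subunit, had differences of -0.01 and -0.28 on its 2 probe sets, with overlap on both. Rpl38, needed in mice for the translation of certain Hox messenger RNAs, had 580 and 560 against 646 and 296 on the probe set that was tested, a difference of 0.38 with a standard error of 0.71.

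Small subunit genes were spread in the same way, with 6 above 0, 8 below and a median of -0.03. Rps18, in the head of the subunit, had 63458 and 83837 with rosiglitazone against 69803 and 73069 with vehicle. The vehicle arrays lay between the rosiglitazone arrays, and the difference was 0.03 with an interval from -0.47 to 0.53. Rps10, another head protein, had 36763 and 35510 against 35690 and 43192, a difference of -0.12. Rpsa, which is also known as a laminin receptor at the cell surface, had 12845 and 10395 against 10864 and 11820, a difference of 0.03 (interval -0.45 to 0.51). Rps19, the first gene tied to Diamond-Blackfan anaemia, had 9782 and 8886 against 8445 and 10776, also with overlap and a difference of -0.03. Of the head proteins 6 of 8 were tested, and their differences ran from -0.12 to 0.24.

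Rps3, at the entry of the messenger RNA channel, had 22995 and 15274 with rosiglitazone against 17395 and 15242 with vehicle. The difference of 0.20 rests on 1 rosiglitazone array and became -0.09 without rosiglitazone replicate 1. Rps4x, the X-linked copy of the S4 protein, had 41212 and 28496 against 45431 and 36215, a difference of -0.24 that became 0.02 without rosiglitazone replicate 2. Rps3a1 had 41255 and 28752 against 42715 and 32362, a difference of -0.11. For Rps4x and Rps3a1 each group thus holds 1 higher and 1 lower array. Rps7 had 17992 and 16912 against 20329 and 16594, a difference of -0.07, and Rps27 had 3184 and 3163 against 3573 and 2952, a difference of -0.03.

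Rps28, a small head protein, shows how probe sets of a gene vary around 0. The brightest had 209045 and 264091 with rosiglitazone against 179894 and 221467 with vehicle, a difference of 0.24. Another had 23297 and 35056 against 30928 and 29093, a difference of -0.07. The dimmest had 3178 and 2503 against 2617 and 1511, a difference of 0.50. The groups overlapped on all 3. The brightest and the dimmest share a source sequence record and carry suffixes of less selective oligonucleotides, so they may not be separate readings. Rps24 had -0.30 on a bright probe set, which was -0.11 without vehicle replicate 4, and -0.28 on a dim one, which was -0.05 without rosiglitazone replicate 2, again with overlap. The platform's probe table gives that bright Rps24 probe set the same source sequence record as the bright Rpl7 probe set described above. On both, vehicle replicate 4 was the highest array and rosiglitazone replicate 2 the lowest, at 208268 and 133299 for Rps24. Which of the transcripts each reads cannot be told apart here.

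Rps13 was the tested gene with the highest difference on its brightest probe set, 0.68, with an interval from -0.74 to 2.10. Its intensities were 823 and 770 with rosiglitazone against 771 and 321 with vehicle, so the value rests on 1 low vehicle array and was 0.05 without it. Rps29 had 1745 and 1704 against 2289 and 1243, a difference of 0.03. A dim probe set of Rps29 had 110 and 46 against 70 and 254, with overlap, and was not tested. Paralogs are relatives of a core protein encoded by another gene. Rpl7l1 had 654 and 423 with rosiglitazone against 853 and 672 with vehicle, a difference of -0.53 (adjusted p = 0.794 in limma) with groups that did not overlap, which was -0.21 without rosiglitazone replicate 2. Rps4l, a relative of Rps4x, had -0.10 on one probe set and 0.61 on another, and neither passed (adjusted p = 0.951 and 0.788 in limma).

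The 16 probe sets left untested were dim, with no intensity above 696, and they account for all of the 9 genes not tested. These genes were Fau, Rpl32, Rpl35a, Rpl39, Rpl39l, Rps14, Rps15, Rps20 and Rps27l. The groups did not overlap in 8 of the 16, against 24.0% of the 5288 probe sets under the filter, with 3 higher with rosiglitazone and 5 lower, against 11.3% and 12.7%. The probe sets of Rps14 and Rps20, named after their values were seen, had the widest gaps, in opposite directions. Rps14 had 580 and 538 with rosiglitazone against 113 and 128 with vehicle, both under the floor, so the ratio was at least 3.77-fold higher. Rps20 had 106 and 125 with rosiglitazone, both under the floor, and 441 and 696 with vehicle, at least 3.74-fold lower. With no filter on dim probe sets limma gave them an unadjusted p of 0.00324 and 0.0111, and neither passed (adjusted p = 0.295 and 0.346). In that fit 0 of all 12422 probe sets passed and 9.68% had an unadjusted p under 0.05.

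A second probe set of Rpl38 had 51 and 62 with rosiglitazone against 300 and 267 with vehicle. That is at least 1.91-fold lower, where the tested probe set of the gene had overlapping groups. Fau, which encodes a ubiquitin-like protein fused to Rps30, had 501 and 157 against 680 and 531. Rps15 had 188 and 138 against 364 and 196, and Rpl35a, another gene tied to Diamond-Blackfan anaemia, had 146 and 227 against 242 and 366. All 3 were lower on both rosiglitazone arrays, with the nearest arrays of the groups close together. Rpl39, a protein of the exit tunnel, lay the other way, at 358 and 416 against 303 and 352. Of the 4 dim probe sets of Rps4x, 1 had 593 and 187 against 139 and 146, both under the floor, which is at least 2.25-fold higher and rests largely on rosiglitazone replicate 1. The groups overlapped on the other 3, of which 1 had all 4 arrays under the floor.

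A further 39 probe sets list a ribosomal protein gene beside other symbols, most of them pseudogenes, so they name no gene here. Of these 37 were tested, with 18 above 0 and a median log2 difference of -0.01. None (0) passed in limma, and 2 had an unadjusted p under 0.05, against 0.364% and 10.9% of all probe sets tested. At a mean intensity of at least 5000 there were 25, between -0.49 and 0.37. Processed copies of ribosomal protein genes are many in the mouse genome, and short oligonucleotides may not separate them from the parent gene. A value given for a gene above can therefore hold signal from such copies.

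**Figure D3:**
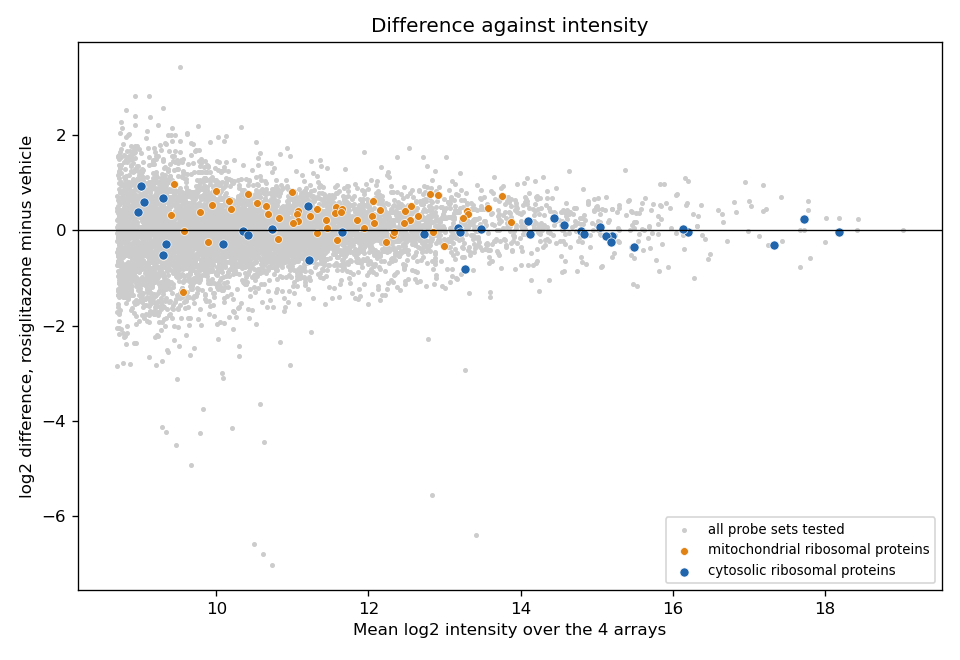
Log2 difference, rosiglitazone minus vehicle, against the mean log2 intensity over the 4 arrays for the 7134 probe sets tested (grey), the 34 of cytosolic ribosomal proteins (blue) and the 57 brightest probe sets of mitochondrial ribosomal protein genes (orange). The blue points stay near 0 at high intensity, and most orange points lie above 0.

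By array, the median deviation of the 27 genes from their 4-array means was 0.01 and -0.08 with rosiglitazone against 0.02 and 0.01 with vehicle. Rosiglitazone replicate 2 was thus the lowest. Over all genes tested the medians were 0.01 and 0.02, then 0.05 and 0.03. The median log2 difference of the family ran from -0.10 to -0.01 with 1 array left out. Across the 34 probe sets the correlation of log2 intensities was 0.990 for the pair of rosiglitazone arrays, 0.991 for the vehicle pair and 0.983 to 0.993 across groups. Over all 7134 the values were 0.881, 0.892 and 0.855 to 0.866. Probe sets are not independent replicates, and the wide range of brightness among the 34 raises these correlations.

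Other genes of translation give the frame for these values. Of 57 tested genes for mitochondrial ribosomal proteins, which build the separate ribosome inside mitochondria, 45 lay above 0, with a median of 0.33. In limma 0 of the 57 passed, and 5 had an unadjusted p under 0.05, against 0.364% and 10.9% of all probe sets tested. The groups did not overlap in 28 that were higher and 5 that were lower, against 19.0% and 21.8% of all probe sets tested. Mrpl4 had 10362 and 9621 with rosiglitazone against 6446 and 5483 with vehicle (log2 difference 0.75, adjusted p = 0.215 in limma). Mrpl23 had 11456 and 7583 against 5282 and 5709 (0.76, adjusted p = 0.303 in limma). The median was 0.42 with each array centred on its median and 0.32 after quantile normalization. With 1 array left out it ran from 0.19, without rosiglitazone replicate 1, to 0.39. Of 6 tested markers of brown adipocytes 5 lay above 0, with a mean log2 intensity of 14.70 and 14.85 with rosiglitazone against 14.28 and 14.19 with vehicle, and their part in these values was not tested. Whether the mitochondrial and cytosolic genes differ from each other was not tested either.

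The elongation factors, which carry tRNA to the ribosome and move it along, had 4 of 5 tested genes above 0 and a median of 0.26, which was 0.0012 without vehicle replicate 4, 0.06 without rosiglitazone replicate 1, 0.45 without rosiglitazone replicate 2 and 0.05 with no filter. Eef1b2, a nucleotide exchange factor, was the exception at -1.02, with overlap. The other of the pair with the smallest p was Eef1a2 at 0.49. Initiation factors had 18 of 28 above 0 and a median of 0.11, with Eif3l at 0.58 and Eif2b4 at 0.61. Without rosiglitazone replicate 1 that median turned to -0.11, with 12 of 28 above 0, and without vehicle replicate 4 it was 0.04. It was 0.17 without vehicle replicate 3. The aminoacyl-tRNA synthetases, which load amino acids onto tRNA, had 12 of 17 above 0 and a median of 0.24 (0.16 without vehicle replicate 4), with Gars at 0.57 and Sars at 0.76. Genes of ribosome biogenesis had 17 of 33 above 0 and a median of 0.01, with Bysl at -0.66 and the nucleolar chaperone Npm1 at -0.59, and leaving out rosiglitazone replicate 2 gave a median of -0.11 and leaving out replicate 1 one of 0.13. None (0) of the genes in these 4 lists passed in limma, against 0.364% of all probe sets tested. An unadjusted p under 0.05 was held by 0 of 5, 1 of 28, 1 of 17 and 0 of 33, against 10.9%.

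Other transcripts known for a TOP tract had 6 of 14 above 0 and a median of -0.27, which became 0.04 without rosiglitazone replicate 2 and -0.47 without rosiglitazone replicate 1. Their members with the smallest p were the histone chaperone Nap1l1 at -0.96 and Npm1, and 0 of 14 passed in limma while 1 had an unadjusted p under 0.05. The list for the S6 kinases and the mTOR pathway had 12 tested genes. Among them was Pdk1 at -0.53, a pyruvate dehydrogenase kinase outside that pathway, counted here as listed. Of the 12, 7 lay above 0, with a median of 0.12. It was 0.01 without rosiglitazone replicate 2, 0.02 without vehicle replicate 3 and 0.31 without vehicle replicate 4. Rps6kb2, an S6 kinase that phosphorylates the ribosomal protein S6, had 1387 and 1217 with rosiglitazone against 477 and 364 with vehicle. Its log2 difference was 1.64 and did not pass (adjusted p = 0.249 in limma). Ddit4, an inhibitor of mTOR that stress induces, had 231 and 569 against 1057 and 1583, a difference of -1.84 that did not pass (adjusted p = 0.315 in limma). In this list 0 of 12 passed and 3 had an unadjusted p under 0.05, against 0.364% and 10.9% of all probe sets tested. In the Myc network 0 of 4 tested genes had an unadjusted p under 0.05, against 10.9% of all probe sets tested. Their median was -0.34, with Max at -0.69 and Mxi1 at -0.81 and the other 2 near 0. That median was -0.64 without rosiglitazone replicate 2, -0.68 without vehicle replicate 4 and -0.04 over 9 genes with no filter.

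**Figure D4:**
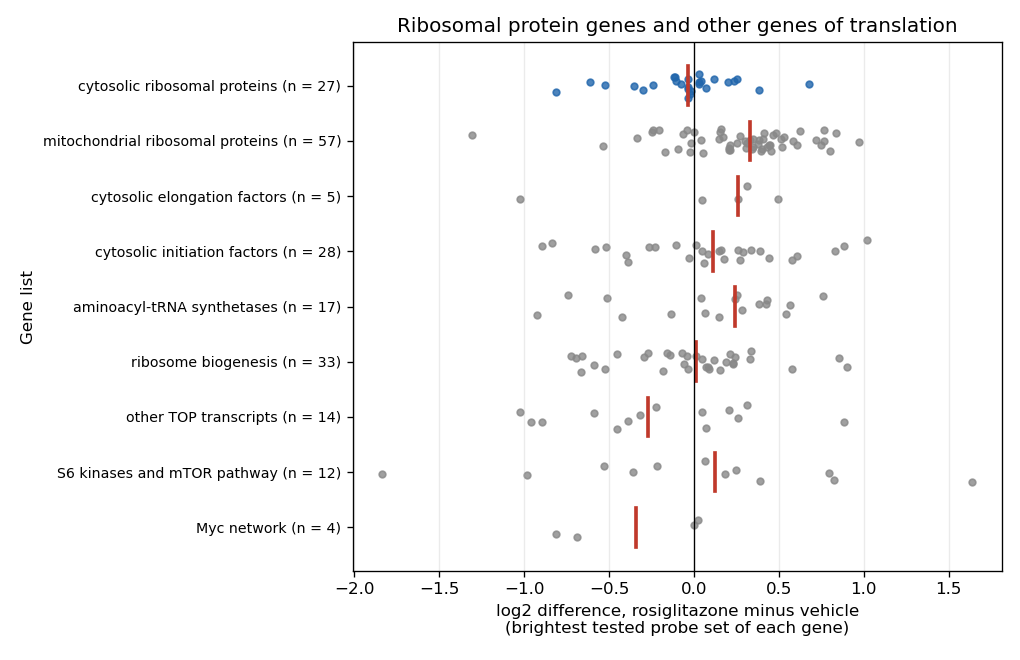
Log2 difference, rosiglitazone minus vehicle, on the brightest tested probe set of each gene (points, spread vertically for clarity) with the median of each list (red bar) for the cytosolic ribosomal proteins and 8 other lists of translation genes. The cytosolic ribosomal proteins centre on -0.03 and the mitochondrial ones on 0.33.

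Smooth muscle markers had a mean log2 intensity from 11.61 to 12.98 across the arrays, with all 8 markers on the array tested. Brown adipocyte markers had means from 14.19 to 14.85 and erythrocyte markers from 13.72 to 14.31. Brightness does not order the transcripts of different genes, so these means do not rank the cell types. The differences of the 8 smooth muscle markers all lay below 0, with a median of -1.19. Tagln, the actin-binding protein transgelin, passed (adjusted p = 0.0455 in limma). All 9 macrophage markers lay below 0 too, with a median of -1.17, and the lipopolysaccharide receptor Cd14 passed at -2.93 (adjusted p = 0.000145 in limma). Of the brown adipocyte markers the fatty acid carrier Fabp3 passed at 1.55 (adjusted p = 0.024 in limma). Neutrophil markers had 5 of 6 below 0, and the 2 subunits of calprotectin passed in limma, S100a8 at -6.39 (adjusted p = 9.8e-05) and S100a9 at -5.57 (adjusted p = 1e-05). Endothelial markers had 5 of 7 below 0, lymphocyte markers 3 of 4 and erythrocyte markers 3 of 5. White adipocyte markers had 3 of 5 below 0 and skeletal muscle markers 1 of 4. In limma 0 of the markers in these lists passed, against 0.364% of all probe sets tested. In the same order, 2, 1, 3, 0 and 0 had an unadjusted p under 0.05, against 10.9%. The median of the ribosomal protein genes on the same arrays lay near 0.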

How the data were processed

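The data are 4 arrays of pooled aortic RNA. The authors deposited whole-number intensities on a linear scale, not logged; the sources used here do not name the software that made them. With 2% of values trimmed at each end, mean intensity was 1501 on each array, and array medians differed by 0.13 on the log2 scale at most, under the limit of 0.2 for further scaling. Detection calls were not used, so signal over background is unknown. Precision is limited by the number of arrays, and the labels give no pairing or batch.

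Of 12488 probe sets, 66 controls were left out. Symbols were taken from the platform's probe table: 10833 probe sets had 1 symbol, 396 several and 1193 none. The identifier of 10817 was found in the GRCm38.p6 table, and 0 symbols changed. Intensities under the 20th percentile (148) were raised to it, and probe sets with a mean log2 intensity under the 40th percentile (414) were dropped. The groups were tested two-sided with limma 3.58.1 in R 4.3.3, using lmFit and an eBayes step that follows the intensity trend, and p-values were adjusted by Benjamini-Hochberg over all 7134 probe sets. There were 2 residual degrees of freedom and a median of 7.14 prior ones. The procedure was tested on simulated data in which every planted difference was well over 2-fold, so that test does not bear on smaller differences.

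Members and lists were chosen with earlier results of these data known. The naming rule took member probe sets with a p under 0.05, the 8 highest and 8 lowest genes, genes whose probe sets lie 1 or more apart in log2 with opposite sign, and genes with a known role. Other members were named after their values were seen. From each list the 2 genes with the smallest p were named. Of the genes listed for their role 10 were not analysed here, among them Rpl5, Rpl11, Rps6 and Rps27a. Start windows were matched by symbol.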

Additional observations from a re-analysis of the deposited data

How the results depend on the processing

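Ribosomal protein probe sets with an adjusted p below 0.05 numbered 0 in limma under each of the 11 other settings, and also 0 with only the probe sets whose identifier has no cross-hybridisation suffix. The number at an unadjusted p under 0.05 in limma was 1 of 34 in the reported fit, against 10.9% of all probe sets tested. With no filter it was 4 of 50, against 9.68% of all 12422. After quantile normalization it was 3, and the share over all probe sets was not taken for that setting. Over all probe sets tested the number called was 26 as reported, 17 with no floor, 17 with each array centred on its median, 7 without the intensity trend, 0 with no filter and 6 to 71 with 1 array left out. The lowest counts were without vehicle replicate 3 and without vehicle replicate 4 (6 each), and the highest without rosiglitazone replicate 2; the cause was not tested. The median of the ribosomal protein genes was 0.050 with each array centred and between -0.10 and -0.011 with 1 array left out, and -0.01 with the probe sets that list several genes added, an alternative chosen after seeing the data. With each array centred, 9 differences turned above 0: Rpl41 0.048, Rpl10a (dimmer probe set) 0.0069, Rps28 (middle probe set) 0.013, Rps7 0.0082, Rplp0 0.048, Rpl22 0.068, Rps19 0.050, Rps27 0.049 and Rpl8 0.062. After quantile normalization Rpl22 had 0.063, Rpl37a -0.035, Rpl19 -0.040, Rpsa -0.053 and Rps18 -0.050. With 1 array left out, 21 of 34 changed sign: Rpl41 (-0.090 to 0.020), Rpl10a (-0.24 to 0.089), Rps28 (-0.36 to 0.22), Rps4x (-0.51 to 0.023), Rps3 (-0.092 to 0.50), Rps7 (-0.22 to 0.072), Rplp0 (-0.092 to 0.022), Rps3a1 (-0.37 to 0.15), Rpl22 (-0.29 to 0.27 and -0.76 to 0.19), Rpl37a (-0.10 to 0.18), Rps19 (-0.21 to 0.14), Rps27 (-0.17 to 0.10), Rpl8 (-0.058 to 0.017), Rpl19 (-0.31 to 0.45), Rpsa (-0.12 to 0.18), Rps4l (-0.44 to 0.23), Rps18 (-0.17 to 0.23), Rps29 (-0.41 to 0.47), Rps10 (-0.26 to 0.018) and Rpl38 (-0.18 to 0.95). The lowest tested difference, that of the brighter Rpl10a probe set, stayed below 0 in every setting, from -1.11 without vehicle replicate 3 to -0.51 without vehicle replicate 4. No paired analysis was possible because the labels number the arrays 1 and 2 in one group and 3 and 4 in the other. Probe sets near the floor have no stated signal over background, which limits what their differences show.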
